A study of Ciona robusta with 15 samples.

Results

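Of 15284 gene models measured in whole Ciona robusta embryos, 4 were selected on measured values, because their transcript level was lower in every replicate that received Foxa.a together with Bra, while the mean difference stayed above a set limit where Bra was given without Foxa.a. They are KH.S455.4, KH.C2.136, KH.C14.202 and KH.L22.12. The rule used normalised reads, that is gene read counts scaled to library size by the authors. A gene had to average at least 50 in control embryos. Its log2 difference from the control library with the same replicate number (after adding 1 to both values) had to be at most -0.4 in all 6 such differences of the groups given Foxa.a, and its mean difference had to be above -0.2 in both groups given Bra without Foxa.a. These differences chose the genes, so they are given here as descriptions, without a test.

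The series holds 15 libraries in 5 groups of 3, each from 300 electroporated embryos raised at 21 °C to Hotta stage 19.5. The groups were Bra+Foxa.a+Mnx (Etr1>Venus-Bra, Etr1>Foxa.a-Myc and Etr1>Mnx-HA), Bra+Foxa.a (Etr1>Venus-Bra and Etr1>Foxa.a-Myc), Bra+Mnx (Etr1>Venus-Bra and Etr1>Mnx-HA), Bra (Etr1>Venus-Bra alone) and control (the reporter Etr1>H2B-Venus). All plasmids, the control reporter included, were driven by the Etr enhancer, so the factors were placed in neural tissue while RNA came from the whole embryo. Foxa.a and Mnx were never given without Bra, so what follows is Foxa.a in the presence of Bra. In whole embryos, fewer cells of a type and less RNA per cell cannot be told apart. The design text calls the replicates biological and does not say what separated them, so p-values reflect the scatter among these libraries only, and some of it may be technical.

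Brachyury (Bra) is the T-box transcription factor that specifies the notochord of ascidian larvae. Foxa.a is a forkhead factor of the early endoderm, notochord and ventral neural lineages, and Mnx is a homeodomain factor. The Etr enhancer belongs to Celf3/4/5/6, a neural gene that encodes an RNA-binding protein. By its title, the series is about how Bra works within a network that sets notochord identity. The files pair no gene model with a name, and the reference table matched 0 of the 4 identifiers, so neither a function nor a sequence is given for these genes. The name of each factor or neural gene below was paired with its identifier without an annotation to check it.

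Few genes had this pattern. Of 10481 genes with a control mean of at least 50, 269 (2.57%) were at or below -0.4 in all 6 differences with Foxa.a. In 227 of the 269 the mean difference was at or below -0.2 both in Bra and in Bra+Mnx embryos. In 37 it was above -0.2 in Bra only, in 1 it was above -0.2 in Bra+Mnx only, and the remaining 4 (1.49%) are the genes described here. Over the 269 genes the median of the mean log2 differences was -0.94 in Bra+Foxa.a+Mnx embryos and -0.87 in Bra+Foxa.a embryos. It was -0.69 for Bra+Mnx and -0.43 for Bra alone. Choosing the 269 genes for low values with Foxa.a favours lower medians in the groups given it. Nothing is therefore read from the gap to the other groups. Over all 10481 genes the medians ran from -0.029 (Bra+Foxa.a) to -0.0076 (all 3 factors). All of these comparisons share the same 3 control libraries. The mirrored rule, for genes higher with Foxa.a and not higher without it, found 13 genes among 311 that were at or above 0.4 in all 6 differences. The same rule with Mnx in the place of Foxa.a found 2 of the 10481 genes. Genes lower in all 6 differences with Mnx were not counted, so no share of such genes is given.

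**Figure D1:**
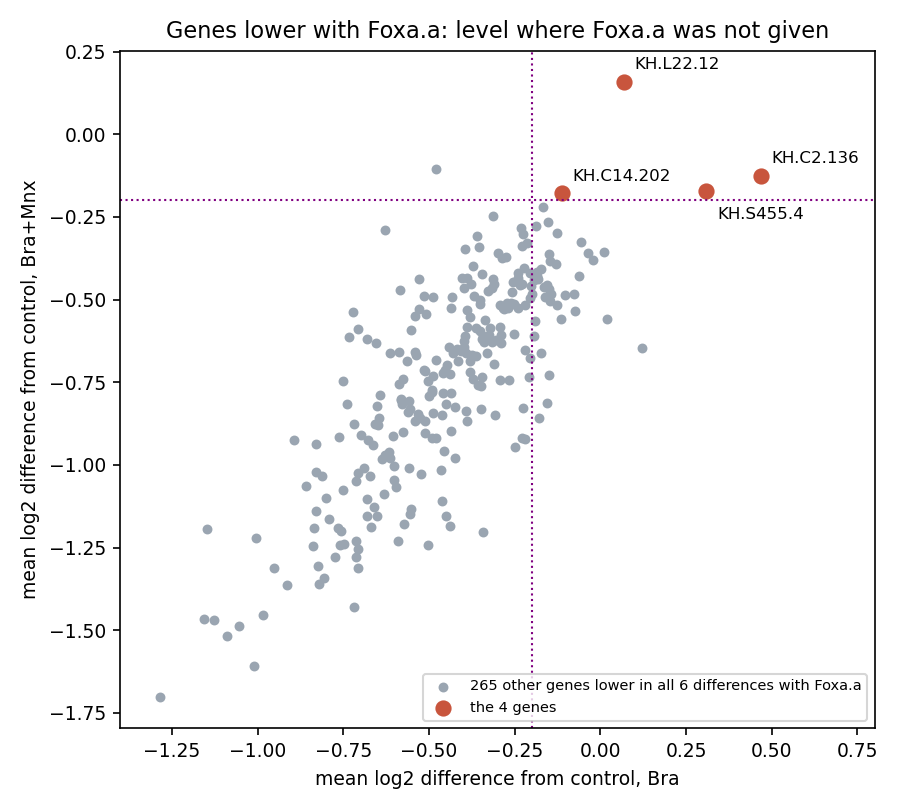
Each point is 1 of the 269 genes that were lower by at least 0.4 in all 6 differences with Foxa.a, placed by its mean log2 difference from control in Bra embryos (horizontal) and in Bra+Mnx embryos (vertical). Dotted lines mark -0.2, and the 4 genes in red lie above and to the right of both lines while 227 of the others lie below and to the left of both.

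The count of 4 depended on the pairing by replicate number and on single pairs. It was 0 when each treated library was set against the mean of the 3 controls instead of its own number. Without the libraries of replicate 1, 2 or 3 it was 5, 10 or 9, and 4, 3 or 2 of the 4 genes were among them. KH.S455.4 dropped out without replicate 2, and KH.C2.136 and KH.C14.202 dropped out without replicate 3. With a limit of -0.3 in place of -0.4 there were 10 genes, and with -0.5 there were 2, KH.C2.136 and KH.S455.4. With -0.1 in place of -0.2 only KH.L22.12 was left.

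KH.S455.4 was the most abundant of the 4 and had the lowest mean over the 6 differences, -0.84. On a scale shared by all 15 libraries it had 431, 620.2 and 315 normalised reads in Bra+Foxa.a+Mnx replicates 1, 2 and 3 and 516, 652 and 262 in Bra+Foxa.a. It had 773, 1045 and 431 normalised reads in Bra+Mnx, 972, 1186 and 823 in Bra, and 837, 1043 and 568 in control. In all 5 groups replicate 2 was the highest library and replicate 3 the lowest, so the groups overlapped with control although each library with Foxa.a lay below the control of its own number. The mean log2 difference from control was -0.85 ± 0.10 in Bra+Foxa.a+Mnx and -0.83 ± 0.25 in Bra+Foxa.a (SD, n = 3), that is 55.4% and 56.3% of the control level. It was -0.17 ± 0.20 in Bra+Mnx, with 0.31 ± 0.20 for Bra alone, where all 3 differences were above 0. The Bra+Mnx mean hides a split, since replicate 3 was at -0.40 while replicates 1 and 2 were at -0.12 and 0.00019.

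KH.C2.136 differed most between Bra alone and Bra with Foxa.a. It had 36.8, 89.6 and 73.1 normalised reads in Bra+Foxa.a+Mnx, 71.6, 96.8 and 64.5 in Bra+Foxa.a, 87.5, 119.7 and 138 in Bra+Mnx, 141, 213 and 167 in Bra, and 115, 152.21 and 106 in control. Every library with Foxa.a lay below every control library and every Bra library. The Bra+Mnx libraries lay below all Bra libraries and overlapped with Bra+Foxa.a. The mean difference from control was -0.97 ± 0.58 in Bra+Foxa.a+Mnx, where replicate 1 at -1.62 stood apart from -0.76 and -0.53. It was -0.68 ± 0.03 in Bra+Foxa.a, -0.13 ± 0.43 in Bra+Mnx, with 0.47 ± 0.18 for Bra alone (SD, n = 3). In Bra+Mnx embryos replicates 1 and 2 were at -0.40 and -0.35 and replicate 3 at 0.37, so the mean above -0.2 rests on replicate 3.

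KH.C14.202 was lower by less. It had 81.0, 81.2 and 62.3 normalised reads in Bra+Foxa.a+Mnx and 63.9, 70.9 and 64.5 in Bra+Foxa.a, against 110.1, 113 and 88.4 in control. The corresponding values were 90.9, 94.5 and 88.9 in Bra+Mnx and 86.4, 95.4 and 106 in Bra. The libraries with Foxa.a did not overlap with any other group. The mean difference from control was -0.47 ± 0.03 in Bra+Foxa.a+Mnx, -0.63 ± 0.17 in Bra+Foxa.a, -0.18 ± 0.16 in Bra+Mnx, with -0.11 ± 0.33 for Bra alone (SD, n = 3). Its means without Foxa.a were thus below 0 too, with -0.35 in Bra replicate 1 and -0.28 in Bra+Mnx replicate 1.

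KH.L22.12 varied far more between replicates than between groups. It had 19.6, 96.91 and 118 normalised reads in Bra+Foxa.a+Mnx, 24.6, 104 and 119 in Bra+Foxa.a, 37.4, 159 and 189 in Bra+Mnx, 44.6, 131 and 158 in Bra, and 34.4, 142 and 163 in control. Replicate 1 was the lowest and replicate 3 the highest library in all 5 groups, and the 3 control libraries spanned a 4.76-fold range. Against the control of the same number the spread was smaller, with mean log2 differences of -0.59 ± 0.16 in Bra+Foxa.a+Mnx, -0.45 ± 0.02 in Bra+Foxa.a, 0.16 ± 0.05 in Bra+Mnx, with 0.07 ± 0.26 for Bra alone (SD, n = 3). The Bra differences were of both signs, 0.36, -0.11 and -0.05. Of the 4 genes it alone had all 3 Bra+Mnx differences above 0.

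**Figure D2:**
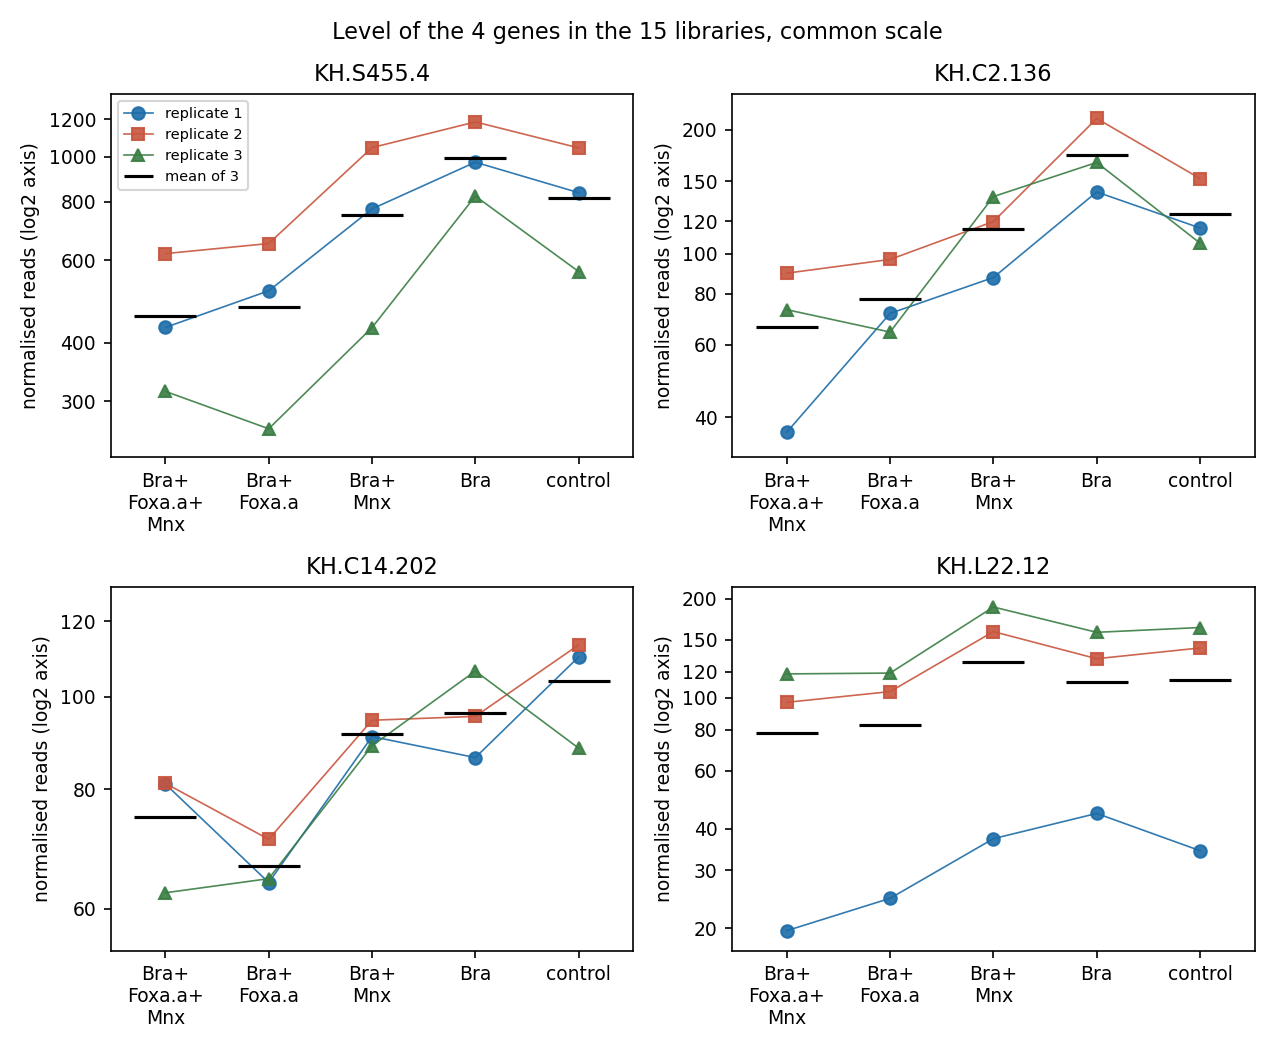
Normalised reads of the 4 genes on 1 scale (log2 axis) in Bra+Foxa.a+Mnx, Bra+Foxa.a, Bra+Mnx, Bra and control embryos, with symbols and lines for replicate numbers 1 to 3 and black bars for the mean of 3. The lines keep their order in all 5 groups for KH.S455.4 and for KH.L22.12, whose replicate 1 lies between 19.6 and 44.6 while the other libraries lie between 96.91 and 189.

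**Figure D3:**
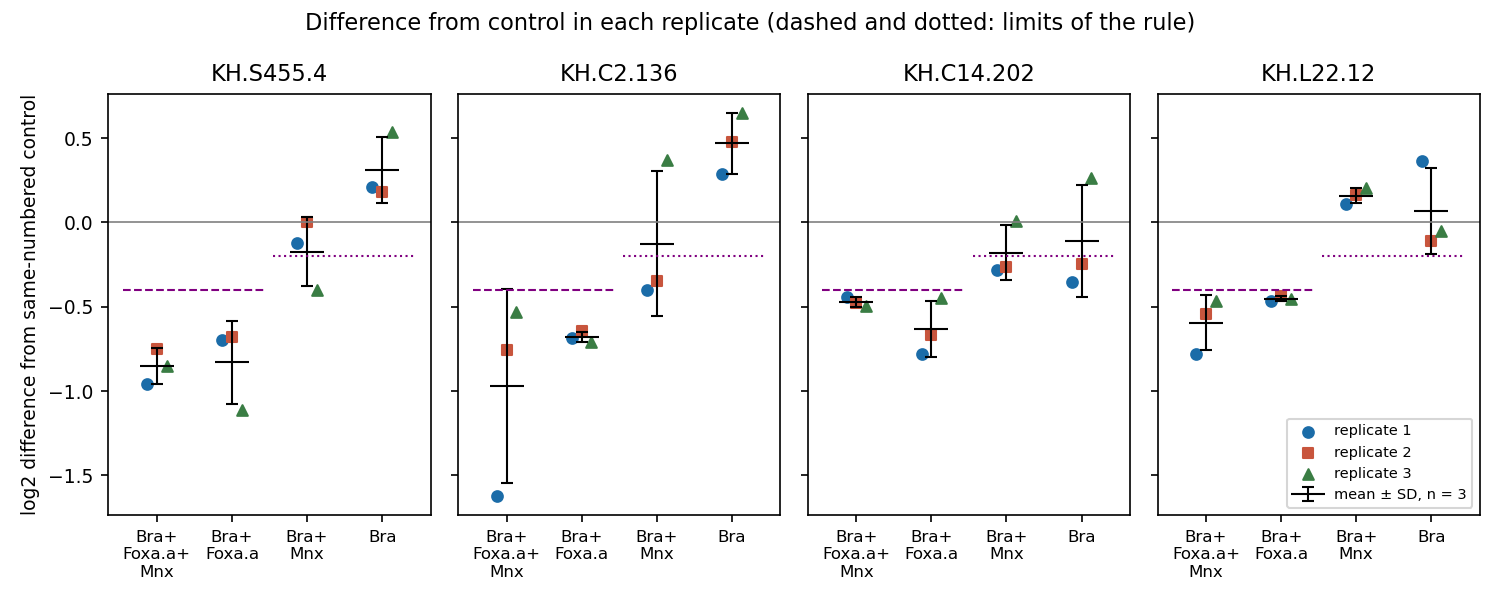
Log2 difference from the same-numbered control for each replicate (symbols) with the mean ± SD of 3 (black) in Bra+Foxa.a+Mnx, Bra+Foxa.a, Bra+Mnx and Bra embryos. The dashed line is the -0.4 limit that all 6 values with Foxa.a had to meet, and the dotted line the -0.2 limit that the mean had to exceed without Foxa.a, so single values without Foxa.a can lie below it, down to -0.40 in Bra+Mnx.

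Counting error is 1 part of the error of these values, and replicates also differed beyond it. The 4 genes had between 24 and 1047 recovered reads per library with a factor, in libraries of 17689915 to 26460260 reads. Exact binomial 95% intervals on the 2 read counts of each difference, which cover counting error only, describe how finely each difference was counted and test nothing, since the rule chose the 24 differences with Foxa.a for being at or below -0.4. Of these intervals 7 lay wholly at or below -0.4. All 6 intervals of KH.S455.4 lay below -0.4, against 1 of 6 for KH.C2.136 and 0 of 6 for KH.C14.202 and for KH.L22.12. In KH.L22.12, Bra+Foxa.a replicate 1 had 32 reads against 39 in its control, and the interval of its difference ran from -1.20 to 0.23. Every interval of KH.C14.202 and KH.L22.12 thus reached above the limit. In Bra+Mnx embryos the interval lay below 0 in 1 of 3 replicates of KH.S455.4 (replicate 3, -0.598 to -0.201) and in 1 of 3 of KH.C2.136 (replicate 1, -0.793 to -0.0233). In Bra embryos it lay above 0 in 3 of 3 replicates of KH.S455.4 and in 2 of 3 of KH.C2.136, under a rule that kept low means out.

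Genes just inside and just outside the limits had like values. Inside the -0.4 limit the highest of the 6 differences was -0.43 for KH.L22.12, -0.44 for KH.C14.202 and -0.53 for KH.C2.136. Just outside it were KH.C9.186 (highest difference -0.35, 5 of 6 at or below the limit), KH.C4.618 (-0.34, 4 of 6) and KH.C1.864 (-0.33, 4 of 6), each highest in Bra+Foxa.a+Mnx replicate 2. KH.C9.186 was far more abundant than the 4 genes, with 1614, 1931 and 2072 normalised reads in Bra+Foxa.a+Mnx and 1508, 1685 and 1557 in Bra+Foxa.a. It had 2518, 2838 and 2450 in Bra+Mnx, 2529, 2358 and 2700.2 in Bra and 2349.8, 2468 and 2766 in control, so its groups with Foxa.a did not overlap with the others. At the other limit, KH.C14.293 met all 6 differences and missed with a Bra+Mnx mean of -0.22.

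The calls of the fits across all genes are given for these 4 genes as a description, since the rule chose them on these differences. In limma fits over the genes with a mean of at least 1, where all 4 genes were tested, 0 of the 4 were called lower in Bra+Foxa.a+Mnx against control, where 1.16% of all genes were (adjusted p under 0.05). In Bra+Foxa.a against control it was 0 of 4, with 1.33% of all genes called lower. At an unadjusted p under 0.05 there were 2 and 3 of the 4, where 1782 of 14213 and 2004 of 14254 genes were, in either direction. edgeR called 0 of 4 lower in both, where it called 149 and 187 genes lower. DESeq2 called 1 and 0 of the 4 lower, where it called 321 and 360 genes lower. With the replicate number as a block, which the pairing of the libraries allows, 3 of 4 were called lower in each, where 6.68% and 12% of all genes were. The blocked fit left out KH.C14.202 with all 3 factors and KH.L22.12 with Bra+Foxa.a. Nothing follows from these counts about the genes. All 3 libraries with Foxa.a were below all 3 controls for 2 of the 4 genes in each comparison, KH.C2.136 and KH.C14.202, where 7.53% and 8.19% of all genes were.

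In the groups without Foxa.a, 0 of the 4 were called in Bra+Mnx or in Bra against control, where 1.86% and 1.49% of all genes were called in either direction. The block left Bra+Mnx at 0 of 4 (13.1% of all genes), also at an unadjusted p under 0.05, where 3785 of 14222 genes were. In Bra it called KH.C2.136 and KH.S455.4 higher, 2 of 4, where 7.1% of all genes were called higher. The rule kept low Bra means out, which favours high ones, so nothing is read from this count against that share. Unblocked, edgeR and DESeq2 called 0 of 4 in both. In Bra+Mnx they called 222 and 439 genes higher and 58 and 177 lower. In Bra these were 194 and 370 higher and 9 and 41 lower. An unadjusted p under 0.05 also gave 0 of 4 in both, where 1323 of 14222 and 916 of 14221 genes were.

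Set against the matching group without Foxa.a on the shared scale, each of the 4 genes was lower in 3 of 3 same-numbered pairs, both where Mnx was present and where it was not. The rule held both sides of these differences, so they too are descriptions. From Bra+Foxa.a+Mnx less Bra+Mnx the mean log2 differences were -0.85 ± 0.41 for KH.C2.136, -0.76 ± 0.12 for KH.L22.12, -0.68 ± 0.20 for KH.S455.4 and -0.30 ± 0.18 for KH.C14.202 (SD, n = 3). From Bra+Foxa.a less Bra they were -1.15 ± 0.19 for KH.C2.136, -1.14 ± 0.44 for KH.S455.4, -0.52 ± 0.27 for KH.L22.12 and -0.52 ± 0.17 for KH.C14.202. Among the 269 genes lower in all 6 differences, the mean difference of Bra+Foxa.a less that of Bra was below 0 in 267, with a median of -0.49, and KH.C2.136 and KH.S455.4 ranked 2 and 3 from the lowest. That of Bra+Foxa.a+Mnx less that of Bra+Mnx was below 0 in 250, with a median of -0.23, and KH.C2.136, KH.L22.12 and KH.S455.4 ranked 3, 4 and 7. KH.C14.202 ranked 121 and 96 of the 269, and KH.L22.12 ranked 120 in the first. The 269 genes were chosen for low values with Foxa.a and not on the groups without it, which favours steps below 0. For the 4 genes the rule also kept low means without Foxa.a out, which favours ranks near the lowest. Nothing is therefore read from these counts and ranks. All 3 libraries of Bra+Foxa.a+Mnx were below all 3 of Bra+Mnx for 1 of the 4 genes, KH.C14.202, where 2.81% of all genes were. All 3 of Bra+Foxa.a were below all 3 of Bra for 3 of the 4, all but KH.L22.12, where 3.74% of all genes were.

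In the same contrasts limma called 0 of 4 lower for Bra+Foxa.a+Mnx against Bra+Mnx, where 0.021% of all genes were, and 0 of 4 for Bra+Foxa.a against Bra, where 0.0771% were. At an unadjusted p under 0.05 there were 1 and 3 of the 4, where 467 and 715 of 14260 genes were, in either direction. The replicate block called 3 of 4 in each (0.764% and 2.43% of all genes), all but KH.C14.202 in the first and all but KH.L22.12 in the second. DESeq2 without the block called 0 and 1 of the 4 lower, where it called 13 and 62 genes lower. edgeR called 0 of 4 in both, where it called 2 and 12 genes lower.

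The rule did not use the difference between groups with and without Mnx, but it held both groups of each such difference on the same side of a limit. The Mnx differences are therefore given as fitted values with intervals and are no independent test. Adding Mnx to Bra+Foxa.a gave log2 differences of 0.16 ± 0.17 for KH.C14.202 (95% interval -0.21 to 0.53), -0.02 ± 0.37 for KH.S455.4 (-0.82 to 0.78), -0.29 ± 0.31 for KH.C2.136 (-0.95 to 0.37) and -0.14 ± 0.86 for KH.L22.12 (-2.00 to 1.71). The values after ± are standard errors from limma. Limma called 0 of 4, where it called 0.231% of all genes without the block and 2.17% with it. At an unadjusted p under 0.05 without the block there were 0 of 4, where 475 of 14260 genes were. edgeR and DESeq2 called 0 of 4, where they called 2 and 12 genes higher and 31 and 78 lower. In 0 of 4 genes were all Bra+Foxa.a+Mnx libraries below all Bra+Foxa.a libraries, where 3.93% of all genes were. All 4 intervals held 0, and that of KH.L22.12 was the widest. With the block its interval was -0.46 to 0.17.

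Adding Mnx to Bra gave -0.59 ± 0.31 for KH.C2.136 (95% interval -1.25 to 0.06) and -0.48 ± 0.37 for KH.S455.4 (-1.29 to 0.32), in 3 of 3 same-numbered pairs for both. It gave -0.07 ± 0.17 for KH.C14.202 (-0.44 to 0.30) and 0.09 ± 0.86 for KH.L22.12 (-1.76 to 1.95). Limma called 0 of 4, where 0.0281% of all genes were called. At an unadjusted p under 0.05 there were 0 of 4, where 417 of 14260 genes were. With the block the intervals of KH.S455.4 (-0.73 to -0.23) and KH.C2.136 (-0.998 to -0.19) lay below 0, and limma called 0 of 4, where 1.33% of all genes were called. At an unadjusted p under 0.05 the block gave 2 of 4, where 1745 of 14260 genes were. KH.C2.136 was also the 1 gene of the 4 with all Bra+Mnx libraries below all Bra libraries, where 2.98% of all genes were. Neither edgeR nor DESeq2 called any of the 4, where they called 2 and 10 genes higher and 2 and 23 lower.

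The interaction sets the step with Foxa.a in the presence of Mnx against that in its absence, the difference of Bra+Foxa.a+Mnx less Bra+Mnx minus that of Bra+Foxa.a less Bra. The rule limited all 4 groups in it, so it too is a description. It was 0.46 ± 0.53 for KH.S455.4 (95% interval -0.68 to 1.60), 0.30 ± 0.43 for KH.C2.136 (-0.63 to 1.23), 0.23 ± 0.24 for KH.C14.202 (-0.30 to 0.75) and -0.23 ± 1.22 for KH.L22.12 (-2.85 to 2.38). Limma called 0 of the 4, with 0% of all genes called, and 0 of the 4 with the block, with 0.00701% of all genes called. With the block the interval of KH.S455.4 was 0.11 to 0.81, and those of the other 3 genes held 0. Neither edgeR nor DESeq2 called any of the 4, where they called 0 and 1 of all genes lower and 0 higher. Without the block 0 of 4 were at an unadjusted p under 0.05, where 162 of 14260 genes were. With the block there was 1 of 4, where 886 of 14260 genes were.

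**Figure D4:**
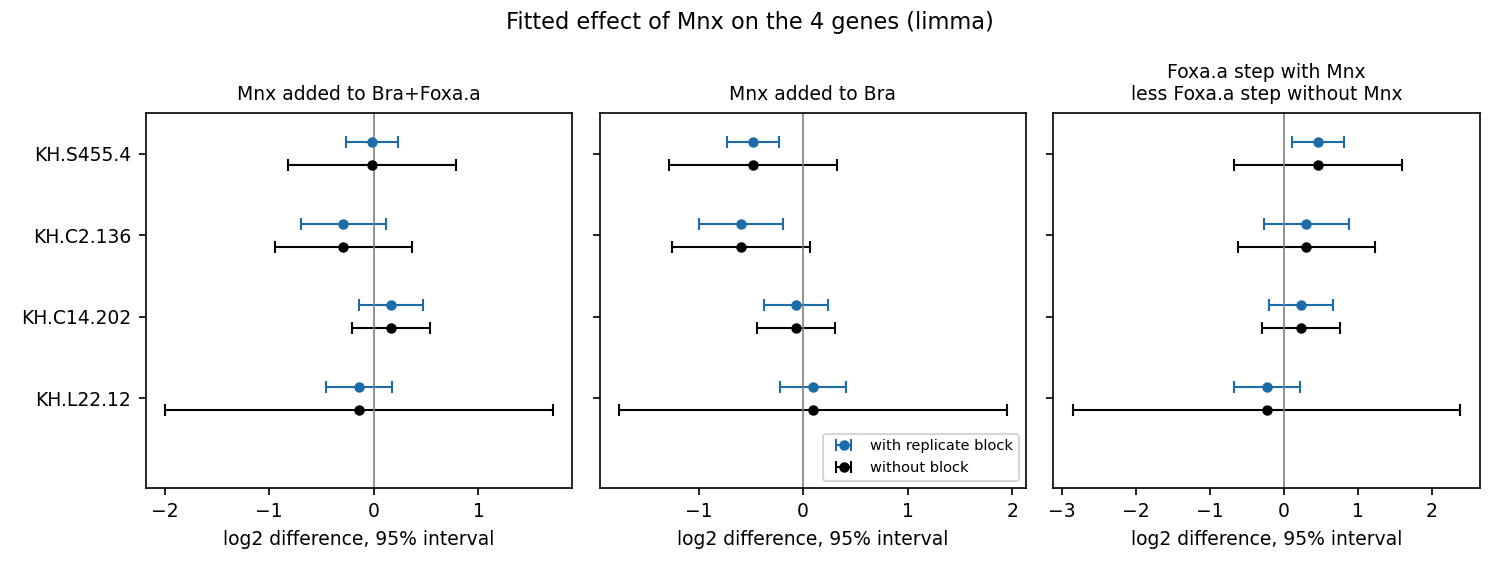
Fitted log2 differences with 95% intervals from limma for the 4 genes, with the replicate block (blue) and without it (black), for Mnx added to Bra+Foxa.a, Mnx added to Bra, and the Foxa.a step with Mnx less that without Mnx. The block narrows each interval, most for KH.L22.12, and leaves the intervals of KH.S455.4 and KH.C2.136 below 0 for Mnx added to Bra.

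Foxa.a itself (KH.C11.313) did not split the groups into present and absent. It had 14950, 13250 and 13405 normalised reads in Bra+Foxa.a+Mnx and 11928, 11676 and 12460 in Bra+Foxa.a. It had 8036, 7698 and 9953 in Bra+Mnx, 6792, 8334 and 6531 in Bra, and 5304, 5853 and 5473 in control. Plasmid and endogenous transcripts are counted together. All libraries that received the plasmid lay above all that did not, and the Bra+Mnx and Bra libraries lay above all controls.

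The driver gene and most of the listed neural genes were also lower without Foxa.a. Celf3/4/5/6 (KH.C6.128) and 5 of 7 listed neural genes were among the 269 genes lower in all 6 differences, where 2.57% of the 10481 genes were. The other listed genes were the 3 electroporated, 3 cardiac, 1 muscle and 1 notochord gene, and 0 of them were among the 269. Of the 16 listed genes 0 were among the 4, which are 0.038% of the 10481, so nothing is read from that count. Celf3/4/5/6 had mean log2 differences of -1.44 ± 0.18 in Bra+Foxa.a+Mnx, -1.28 ± 0.04 in Bra+Foxa.a, -1.20 ± 0.23 in Bra+Mnx, with -0.76 ± 0.17 for Bra alone (SD, n = 3). Pou4 (KH.C2.42), a transcription factor of neurons, was at -1.23 ± 0.26 in Bra+Foxa.a+Mnx, -1.15 ± 0.27 in Bra+Foxa.a, -0.87 ± 0.06 in Bra+Mnx, with -0.39 ± 0.07 for Bra alone (SD, n = 3). Also among the 5 were Neurog (KH.C6.129), Ebf (KH.L24.10), Otx (KH.C4.84) and the pigment gene Tyr (KH.C12.469). In that order their means were -0.86, -0.65, -0.53 and -0.71 in Bra alone. In Bra+Mnx they were -1.06, -1.15, -0.85 and -1.31. Of the 7 neural genes, 2 missed the limit in at least 1 difference with Foxa.a. Islet (KH.L152.2), a homeodomain factor of neurons, was at -0.57 ± 0.50 in Bra+Foxa.a+Mnx, -0.87 ± 0.15 in Bra+Foxa.a, -0.61 ± 0.23 in Bra+Mnx, with -0.47 ± 0.28 for Bra alone (SD, n = 3). Msx (KH.C2.957), a homeodomain factor of the neural plate border, was at -0.35 ± 0.29 in Bra+Foxa.a+Mnx, 0.02 ± 0.17 in Bra+Foxa.a, -0.29 ± 0.30 in Bra+Mnx, with 0.12 ± 0.20 for Bra alone (SD, n = 3). The driver gene, which marks the tissue the plasmids act in, was at a mean of -0.76 or below in every group given Bra. The means of the 4 genes without Foxa.a lay between -0.18 and 0.47. The rule required those means to be above -0.2, so nothing is read from setting them against the driver gene. The part of the driver gene in the level of the 4 genes was not tested.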

How the data were processed

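RNA of 15 libraries was sequenced from stranded mRNA libraries, per the labels' protocols. TopHat2 2.9.8b and DESeq 1.8.1 are named in the submitters' processing notes. Not given in the sources used here are genome build, read counter, strand setting and the treatment of shared reads, so reads of near-identical or overlapping genes could not be told apart. The authors deposited 4 tables of a signal, counts normalised to library size per the file headers, each with the 3 controls and scaled on its own. Another 24 columns were not used. All values of the 24 columns used were whole multiples of 1 step (tolerance 0.01), which gave back the reads. The 10 most abundant genes held 9.16% to 10.0% of the reads, and no 2 libraries of a group agreed within counting noise (lowest chi-square over its degrees of freedom 14.4).

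Comparisons with control were fitted within each table. Comparisons between groups given Bra used the recovered reads after median-of-ratios scaling over all libraries, the shared scale, in 1 fit of 15 libraries. The plan named edgeR for raw counts and limma-trend for normalised values, which the tables hold. limma 3.58.1 (R 4.3.3) was run on log2(value + 1), keeping genes whose mean was at least 1, with Benjamini-Hochberg adjustment over all of them, and was tested on simulated data. A fold change on this scale is understated for low genes. edgeR 4.0.16 and DESeq2 1.42.0 on recovered reads, other pseudocounts, filters and scalings, and each library left out were alternatives. Replicate numbers come from the titles. Deviations from the group means over 14260 genes correlated at 0.545 to 0.716 for the 30 library pairs across groups that shared a number and at -0.436 to -0.125 in the 60 other pairs, so the numbers pair the samples. All 4 members are named, with the 3 genes nearest the -0.4 limit on its outer side. KH.C14.293, Pou4, Islet, Msx and the genes that dropped out were singled out after their values were seen. The members and lists were chosen with earlier results of these data known.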

Additional observations from a re-analysis of the deposited data

How the results depend on the processing

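The number of genes meeting the rule, 4 as reported, was 10 with a limit of -0.3, 2 with -0.5 and 1 with a mean above -0.1 without Foxa.a. It was 0 with no replicate block, and 5 to 10 with 1 replicate number left out, where fewer than 6 differences had to meet the limit. It was 4 or 5 under the other pseudocounts, control minimums and common scalings. The replicate block raised the members called from 0 to 3 in Bra+Foxa.a+Mnx against control, Bra+Foxa.a against control, Bra+Foxa.a+Mnx against Bra+Mnx and Bra+Foxa.a against Bra, and to 2 in Bra against control. It changed no other count of members. DESeq2 raised it to 1 in Bra+Foxa.a+Mnx against control and in Bra+Foxa.a against Bra. With 1 library left out the count stayed at 0 in all 9 comparisons. With 1 library left out, 17 fitted Mnx differences and interactions, none of them called, turned their sign and 79 kept it. For Mnx added to Bra, ranges crossed 0 for KH.C14.202 (-0.14 to 0.0096) and KH.L22.12 (-0.46 to 0.82). They stayed below 0 for KH.C2.136 (-0.74 to -0.41) and KH.S455.4 (-0.77 to -0.13). For Mnx added to Bra+Foxa.a the ranges were -0.55 to 0.081 (KH.C2.136), -0.85 to 0.65 (KH.L22.12) and -0.40 to 0.25 (KH.S455.4). That of KH.C14.202 stayed above 0 (0.098 to 0.29). For the interaction the range crossed 0 only for KH.L22.12 (-0.96 to 0.56). These fits had no block, so their groups held unequal replicate numbers. Over all genes, calls numbered 2066 with the block, 898 in DESeq2 and 566 as reported for Bra+Foxa.a+Mnx against control, 3472, 1094 and 718 for Bra+Foxa.a, 1856, 616 and 265 for Bra+Mnx, and 1351, 411 and 212 for Bra. Between groups given Bra they numbered 260, 42 and 18 (Bra+Foxa.a+Mnx less Bra+Mnx), 673, 158 and 42 (Bra+Foxa.a less Bra), 310, 90 and 33 (Bra+Foxa.a+Mnx less Bra+Foxa.a), 189, 33 and 4 (Bra+Mnx less Bra) and 1, 1 and 0 (interaction). The fewest reads in a library given a factor were 24 for KH.L22.12, 45 for KH.C2.136, 58 for KH.C14.202 and 260 for KH.S455.4.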
